A study of Mus musculus with 44 samples.

Results

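Moderately cut AsiSI sites are the places where the restriction enzyme AsiSI opens the genome in a part of the cells. They were taken as every AsiSI motif off chromosome 2 whose fraction of cells cut, measured by the study with END-seq (a sequencing assay of free DNA ends), was at least 0.1 and below 0.9. The rule leaves out 1 motif on chromosome 3. It gave 210 of the 1109 motifs in the list, and a junction was counted at a site when it lay under 500 bp from the motif and no other motif was nearer. Those sites held 33497 of the 113691 junctions found over 10 kb from the bait break in 26 libraries. The comparators were 31 strongly cut sites (fraction of at least 0.9, 16470 junctions) and 783 rarely cut sites (fraction below 0.1, 4231 junctions), also off chromosome 2.

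All libraries came from C57BL/6 mouse embryonic fibroblasts (MEFs) labelled wild type and were made by high-throughput genome-wide translocation sequencing (HTGTS). In this assay a break at a chosen bait is joined by the cell to other DNA, and each junction between bait and prey is read. AsiSI-MEFs carry AsiSI fused to an oestrogen receptor domain, and every AsiSI-MEF library received doxycycline at 3 µg/ml for 24 h with 4-hydroxytamoxifen (4OHT) at 1 µg/ml for the last 6 h. Whether the line is 1 clone is not given in the sources used here. Cells received CK-666 at 100 µM (6 libraries), an inhibitor of the actin nucleator ARP2/3, NU7441 at 10 µM (3 libraries), an inhibitor of the end-joining kinase DNA-PKcs, or wiskostatin at 3 µM (2 libraries), an inhibitor of N-WASP, which activates ARP2/3. A further 2 libraries expressed Actin-R62D-NLS, a nuclear actin that does not polymerise. Each treated library had a numbered control with DMSO or, for actin, empty vector, which gives 13 pairs. Finally, 6 libraries of MEFs without AsiSI used a Cas9 bait, with DMSO (3) or CK-666 (3).

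AsiSI reads the palindrome GCGATCGC and leaves a short 3′ overhang, and it does not cut when the CpG bases of its motif are methylated, so that unmethylated promoters are its main targets in mammalian cells. Its ends match each other. They can therefore be ligated exactly, which rebuilds the motif, or joined after bases are lost, with or without short stretches of matching sequence (microhomology). Classical non-homologous end joining, which uses DNA-PKcs, and alternative pathways can both make such joins.

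The sequences that carry the results below are printed from the mm10 reference (GRCm38), plus strand, with the AsiSI motif in capitals and the flanks in lower case. The first is the bait, in a non-coding exon or untranslated region 10 bp from the start of Rsu1. The second is the site with the longest sequence match to it. The others are the sites with the highest shares, the sites called after NU7441, the sites with the most uneven use of ends, and the downstream Cmip site, shown as the close neighbour of the upstream one.

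bait, Rsu1, chr2:13271306-13271335: accctgtcccaGCGATCGCgcaggcgcaca
Pelo, chr13:115090179-115090208: cggctgacgcgGCGATCGCgcaggcgcagc
Ppp1r15b, chr1:133131813-133131842: cccttccttcgGCGATCGCacgcctgctct
Cmip, upstream site, chr8:117256830-117256859: ctctgcgccccGCGATCGCccgccgccctc
Cmip, downstream site, chr8:117257056-117257085: ccacgccagccGCGATCGCgcgcgcggccc
Cntln, chr4:84884753-84884782: gcgaaggcgacGCGATCGCagctgctggag
Nr2f2, chr7:70351384-70351413: ggcaagaaggaGCGATCGCccctctctctc
Fat4, chr3:38885757-38885786: cagtcctgctcGCGATCGCggacaaccctc
Klf7, chr1:64121464-64121493: ttttttttctcGCGATCGCttctctccccc
Kat2b, chr17:53567188-53567217: cgcgggggcctGCGATCGCtggcggccgag
Zfp579, chr7:4996033-4996062: cctgcggccggGCGATCGCggacagtggtg
Nemf, chr12:69361469-69361498: caccgcgcccgGCGATCGCtgagagctgcg
Clptm1, chr7:19665055-19665084: acggcgccagcGCGATCGCgcgagatttta

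The moderately cut sites lay mostly at promoters. Of the 210 sites, 184 (87.6%) were within 1 kb of an annotated transcription start, against 28 of 31 strongly cut sites (90.3%) and 124 of 783 rarely cut sites (15.8%). By annotation at the cut, 81 fell in a non-coding exon or untranslated region, 66 in an intron, 42 between genes and 21 in a coding exon. The median GC content of the 100 bp on either side was 67.5%, equal to that of the strongly cut sites, and it was 52.0% at the rarely cut sites. The motif itself was present in 73 of 32851 RefSeq promoter windows (0.222%), and 38 moderately cut sites lay in such a window.

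The depth of the AsiSI-MEF control libraries ranged from 997 to 17479 junctions over 10 kb from the bait, with a median of 4567. In those 13 libraries the moderately cut sites took from 22.1% to 34.3% of junctions, with a median of 29.9% and a mean of 29.7% ± 3.45 (SD, n = 13). Their share of junctions at AsiSI sites off chromosome 2 was steadier, from 56.5% to 62.8%, with a mean of 58.7% ± 2.00 (SD, n = 13). The shallowest of the 26 was CK-666 replicate 2, with 335 junctions. The libraries came from 6 sequencing runs, and both members of each pair shared a run. Replicates are biological by the methods of the study, but the labels do not name separate cultures, so p-values cover the spread between these libraries.

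Libraries of MEFs without AsiSI also held some junctions at these sites. In the 6 Cas9-bait libraries, the numbers of junctions at moderately cut sites were 11, 7 and 41 in the DMSO controls, and 135, 10 and 57 after CK-666. Their shares ran from 0.222% (7 of 3154, 95% Wilson interval 0.108 to 0.457%) to 2.85% (135 of 4731, interval 2.42 to 3.37%), which cover counting error only. All 6 lay below the lowest AsiSI-MEF library. These 261 junctions fell at 115 of the sites, and over the 210 sites their number followed the mean share in AsiSI-MEF controls (Spearman rho 0.713, a description). Per Cas9 library, 60.0% to 81.8% of these junctions restored the AsiSI motif, against 13.2% to 59.0% in the AsiSI-MEF controls. The Cas9 libraries were read in the same sequencing run as wiskostatin pair 2, and the part of that run in these junctions was not tested. Whether they measure joining without AsiSI therefore cannot be told here.

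Joining was spread over many sites. Of the 210 sites, 188 had at least 1 junction in the 26 AsiSI-MEF libraries, 184 had at least 10, 132 had at least 100, and 61 were seen in all 26 libraries. The median site had 134 junctions and the highest had 664. The 10 sites with the most junctions held 16.1% of the total, and 47 sites held 50% of it. The profile over sites was alike between libraries, with a median Pearson r of 0.807 (range 0.424 to 0.95, log2 scale, across sites, which are not independent replicates).

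The rule used the fraction of cells cut, and the share of junctions was higher where more cells were cut. The mean share per site over the 13 controls was 0.0733% for the 98 sites with a fraction from 0.1 to 0.3 and 0.177% for the 63 sites from 0.3 to 0.5. It was 0.191% for the 26 sites from 0.5 to 0.7, and 0.278% for the 23 sites from 0.7 to 0.9. Strongly cut sites averaged 0.519% and rarely cut sites 0.00445%. Over the 210 sites Spearman's rho was 0.606, given as a description. The ranges overlapped widely, and sites of the lowest range reached 0.334%.

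**Figure D1:**
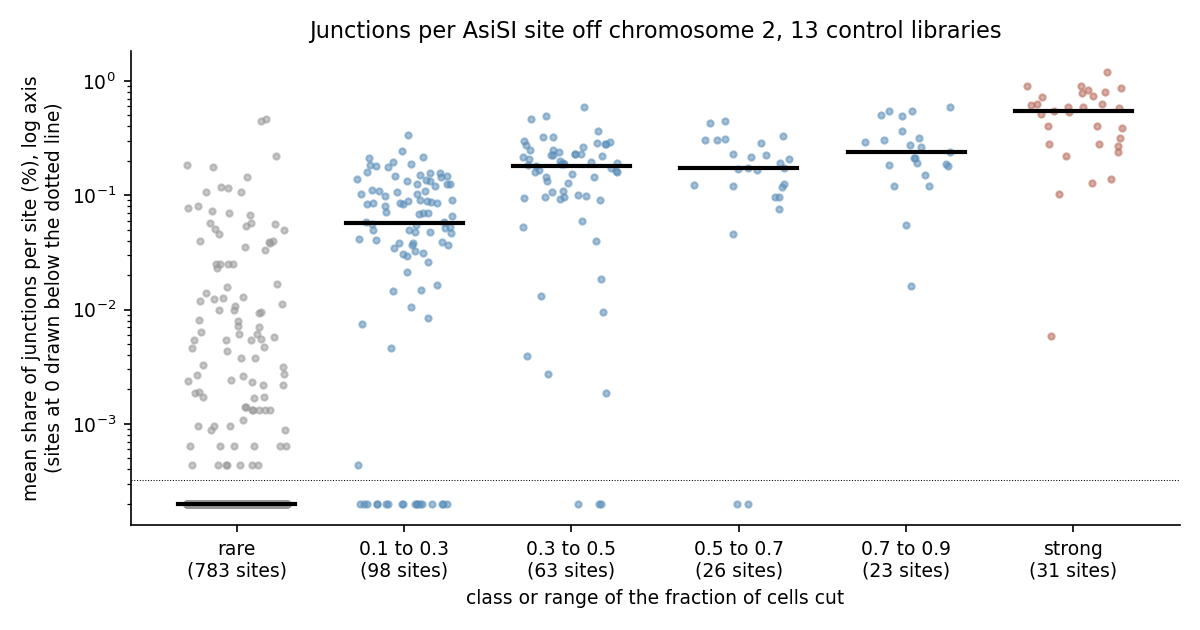
Mean share of junctions per AsiSI site off chromosome 2 over 13 control libraries (log axis, percent of junctions over 10 kb from the bait), by class or range of the fraction of cells cut. Each point is a site and each bar the median of its column. Sites without a junction are drawn below the dotted line. The medians of the moderately cut ranges are 0.0567%, 0.182%, 0.172% and 0.241%, with wide overlap.

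The sites nearest to the bounds of the rule had the following values. Just above the lower bound, chr13:21974822 had a mean share of 0.0381% ± 0.0233 and chr4:57300229 had 0.135% ± 0.0518 (SD, n = 13). Just below it, chr11:51290402 had 0 junctions and chr13:98534679 had 0.116% ± 0.0365. Just below the upper bound, chr19:5804069 and chr17:29888195 had 0.293% ± 0.116 and 0.185% ± 0.0522. Above it, chr1:89454603 and chr8:70283477 had 0.576% ± 0.118 and 0.536% ± 0.120.

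Some cut sites gave no junction at all. In 22 of the 210 sites no junction was found among 113691, which allows a share of up to 0.00264% over the libraries pooled. Of these, 17 had a fraction of cells cut below 0.3 and 2 had a fraction of at least 0.5. The last pair, named after their values were seen, lie in a non-coding exon or untranslated region near the start of Pllp (chromosome 8, position 94696176) and in an intron of Trps1 (chromosome 15, position 50869523), a zinc-finger transcription factor. Repeated sequence was rare around the silent sites: 20 of 22 had only 32-base words found once in the genome within 100 bp, as had 179 of the 184 sites with at least 10 junctions. Their median GC content was 67.25%, against 67.5% at those 184 sites. Within 1 kb of a transcription start were 16 of 22 silent sites and 164 of the 184.

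The 10 most joined sites had mean shares between 0.431% and 0.596% in the controls. Ppp1r15b, which encodes a subunit that directs a phosphatase to the translation factor eIF2α, led with 0.596% ± 0.104 (SD, n = 13; lowest 0.372%, median 0.614%, highest 0.718%). Its cut (position 133131828) lies in the coding exon. The upstream of a pair of sites at Cmip had nearly the same mean, 0.596% ± 0.257, but ranged from 0.199% to 1.12%. Cntln, a centrosomal protein gene, was joined at a coding exon (position 84884768) with 0.550% ± 0.195 (lowest 0.285%, median 0.532%, highest 0.883%).

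A site in the non-coding gene Gm42690, 13564 bp from the start of Sec31a, came next with 0.545% ± 0.173 (position 100429798 of chromosome 5). Snx11, a sorting nexin gene, had 0.501% ± 0.162 (chromosome 11, 96777639), and Otub1, a deubiquitinase gene, had 0.498% ± 0.143 (chromosome 19, 7206284). Fat4, an atypical cadherin gene, had 0.492% ± 0.176. The cut there lies in an intron of C230034O21Rik, 1168 bp from the Fat4 start. Hdgf, a growth factor gene, had 0.465% ± 0.142 (chromosome 3, 87906863). Klhdc4 (chromosome 8, 121829355) and Zfp280c (chromosome X, 48594181) had 0.450% ± 0.134 and 0.431% ± 0.159. Adjacent sites in this order differed by less than their SD over libraries.

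**Figure D2:**
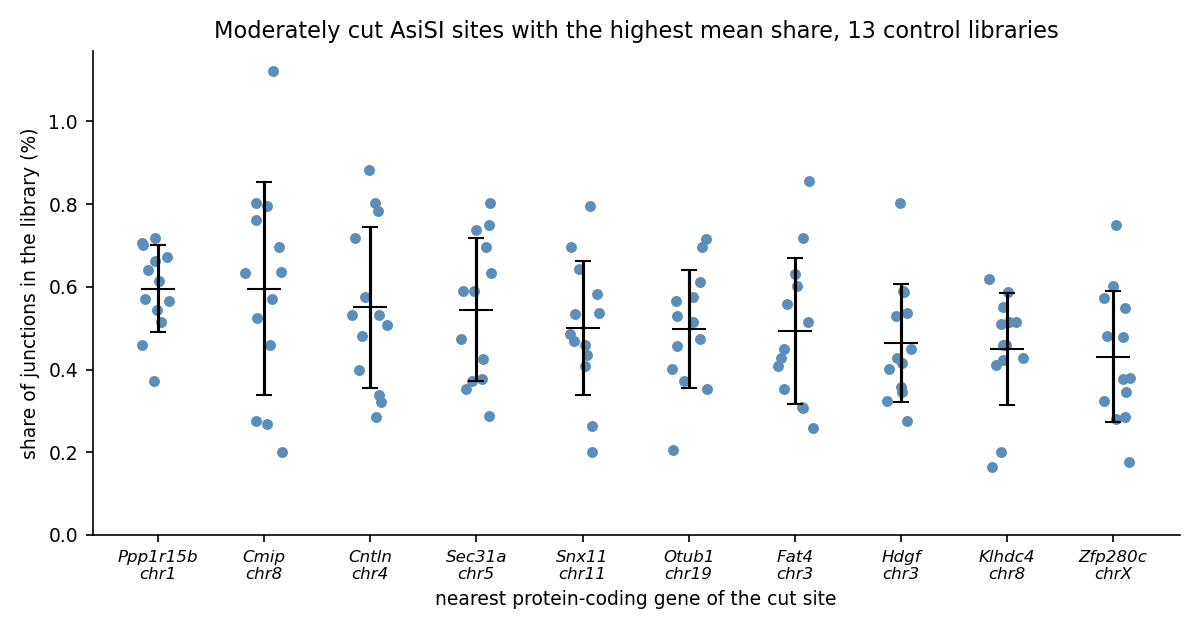
Share of junctions (percent of the library) at the 10 moderately cut sites with the highest mean, named by the nearest protein-coding gene. Points are the 13 control libraries, the horizontal bar is the mean and the whiskers the SD. Means fall from 0.596% at Ppp1r15b to 0.431% at Zfp280c, and all 10 sets of points overlap.

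Each break has 2 ends, and the prey read shows which was joined. Here the right end is the one at higher coordinates. Over all moderately cut sites the ends were used evenly: 49.8% ± 1.67 of joins came from the right end (SD, n = 13 control libraries). At single sites they often were not. Of the 178 sites with at least 10 joins in the controls, 80 were called uneven (limma, adjusted p under 0.05 over all motifs tested), 33 for the right end and 47 for the left. An exact sign-flip permutation test over libraries called 39. The background was 42.8% of all 276 motifs tested (19.2% right, 23.6% left), beside 44.9% of the 178. In 37 of the 80 the fitted ratio was over 2-fold.

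The largest preference for the right end was at the upstream Cmip site, with 277 right and 12 left joins in the controls (95.8% right, ahead in 13 of 13 libraries). The log2 ratio of right to left was 4.18 ± 0.21 (SE, limma adjusted p = 9.745e-17). Clptm1, which encodes a transmembrane protein, had 100 right and 16 left joins (log2 ratio 2.82 ± 0.35, adjusted p = 7.481e-08). The site named for Nemf, a gene of ribosome quality control, lies 4319 bp from its start and 3 bp from that of the small RNA gene Rn7s2, and had 89 and 15 (2.30 ± 0.22, adjusted p = 7.037e-10). Srm, spermidine synthase, had 109 and 29, and Memo1 had 131 and 37, with log2 ratios of 1.82 ± 0.20 and 1.77 ± 0.20. These 5 sites leaned right in 11 to 13 of the 13 libraries and left in none.

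For the left end, Klf7, a zinc-finger transcription factor gene cut 3 bp from its start, had 130 left and 8 right joins, and the left end led in 13 of 13 libraries (log2 ratio −3.45 ± 0.22, adjusted p = 7.109e-14). Zfp579 had 195 left and 33 right joins (−2.57 ± 0.21, adjusted p = 3.197e-11). Kat2b, a histone acetyltransferase gene, had 55 left and 9 right (−2.59 ± 0.35, adjusted p = 4.533e-07). C77080 (chromosome 4, 129248478) had 30 and 3, and Tmem200b (chromosome 4, 131921435) had 16 and 1, so the last rests on 17 joins.

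The 13 treated libraries, which took no part in these calls, leaned the same way at 71 of the 80 sites, the other way at 8, and were even at 1. Klf7 gave 1.35% right ends there (74 joins) and Cmip 93.6% (188 joins). Across 157 sites with at least 20 joins in each set, Pearson's r between the control and treated percentages was 0.884, across sites.

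**Figure D3:**
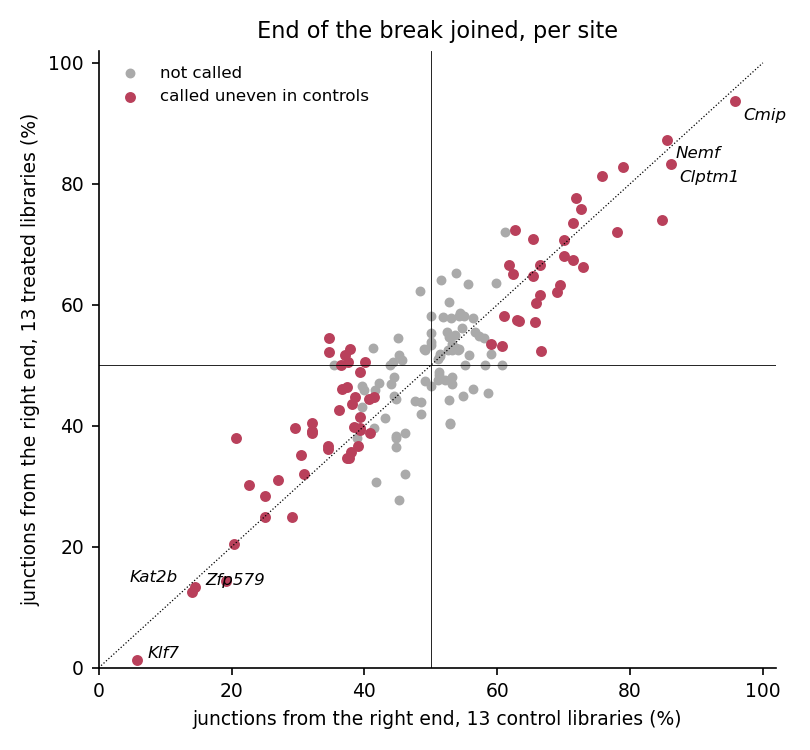
Percentage of joins from the right end of each moderately cut site in 13 control libraries (horizontal) and 13 treated libraries (vertical), for sites with at least 20 joins in each. Red points were called uneven in the controls and the dotted line marks equality. Klf7 lies at 5.80% and 1.35%, and Cmip at 95.8% and 93.6%.

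Several features lay beside the preferred end. At 54 of the 80 called sites it had the lower GC content in its first 100 bp, at 24 the higher, and at 2 the sides were equal. Over the 80, Spearman's rho between the log2 ratio and the GC difference (right minus left) was −0.594, and over all 178 tested sites it was −0.397, as descriptions. At Klf7 the joined left side had 44% GC and the right 67%. At Clptm1 the right had 58% and the left 85%. Zfp579 showed no such gap (67% left, 68% right), and Nemf had 65% left and 68% right. Read mapping differed at 3 called sites: none of the 32-base words on the disfavoured left side of Nemf was unique in the genome, 60.9% were on that of Srm, and 40.6% were on the right of Stc2 (called for the left end). The direction of the nearest gene did not separate the ends, with 38 preferred ends pointing along the gene and 42 against it. The part of GC content and mapping in the uneven ends was not tested.

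Motif pairs under 1 kb apart are given on their own, since cutting at both would free a short fragment. The part of such cutting in the values below was not tested. The upstream Cmip site and its neighbour were 226 bp apart, with 519 and 224 junctions in the 26 libraries. The 2 ends facing the fragment had 453 joins (upstream site) and 75 (downstream site), and the outer ends had 24 and 80. The downstream site used its ends evenly (51.6% right), but 30.8% of its junctions were of the far-side type described next. Each junction was counted at the nearer motif. A join of the upstream right end with a long loss would thus count as far-side at the downstream site. The part of this in the 30.8% was not tested. At Prag1, sites 143 bp apart (chromosome 8, 36094686 and 36094829) had 116 and 252 junctions, with 49 and 123 joins from the inner ends and 56 and 97 from the outer. Cntln lay 422 bp from a strongly cut motif with 766 junctions, and 35.2% of its joins came from the right end.

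The joins themselves fell into 2 main forms. In 29579 of 33497 junctions (88.3%) the prey read away from the cut, beginning near it or, after loss of bases, farther off within the 500 bp window. In 3885 (11.6%) the prey lay on the far side: it pointed toward the cut and stopped at or before it. Another 33 ran through the cut. Far-side preys began a median of 63 bp from the cut (quartiles 47 and 95 bp) and 412 of them (10.6%) stopped exactly at the motif edge. Inserted bases between bait and prey were found in 51.7% of far-side joins and in 4.45% of the others. Among the 158 sites with at least 50 junctions, the far-side share had a median of 8.98% and reached 41.6% at Grsf1. Sites at the extremes of this and the next measures were named after their values were seen.

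Joins that rebuilt the motif exactly were the most frequent product. They made up 10504 junctions (31.4%). Such a join predicts its own microhomology: the motif's 8 bases plus any flanking bases that match the bait. The observed overlap equalled the prediction in 9431 of 10504 (89.8%). Pelo, a ribosome rescue gene, shows it best. On its right side the 9 bases after the motif are those of the bait, which predicts 17, and 28 of 34 restored right-end joins had an overlap of exactly 17 bases. At sites where no flanking base matched, 5595 of 6012 (93.1%) had exactly 8. Restored joins were picked as those that hold the whole motif with an overlap of at least 8. Agreement with the prediction was thus largely fixed by this definition and the reference sequence, and is a description rather than a test.

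Other joins lost few bases. Among the 17813 joins with no base gained past the full end, the median loss was 4 bp, 44.6% lost 0 to 2 bp, and 4.99% lost over 50 bp. Sites differed in this: the median loss per site ran from 2 bp, at Ppp1r15b among others, to 26 bp at Smad6, and the share over 50 bp reached 17.0% at Arl2bp. Over all junctions, 19.3% had no overlap, 34.3% had an overlap of 1 to 5 bases, 36.5% of 6 or more, and 9.92% carried an insertion. Restored joins were 86.0% of the class with the longest overlaps.

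The share of restored joins followed depth, which bears on every comparison of overlap. Across the 13 controls it fell from 59.0% in a library of 1133 junctions to 13.2% in the largest, of 17479 (Pearson r −0.965 against log2 depth, Spearman rho −0.945, permutation p = 1e-05 for each, the smallest that the 100000 resamples can give; adjusted over 9 measures 4.5e-05). Without the 2 libraries farthest from the median depth r was −0.947. No sequencing run held over 4 controls, so the relation was not computed within a run. Across the 158 sites with at least 50 junctions, the restored share fell with the number of junctions too (rho −0.922, a description). A restored join at 1 end of a site has 1 sequence, and identical reads were removed as duplicates upstream. Each library held on average 1.04 to 1.92 such joins per site end that had any, and at most 7. The part of duplicate removal in this relation was not tested. Other measures followed depth too (permutation tests, adjusted over the 9). Losses over 50 bp rose (r 0.795, adjusted p = 0.002092), as did short overlaps (r 0.854) and joins without overlap (r 0.704). The permutations took no account of sequencing run. The deepest controls, of 17479, 11939 and 8023 junctions, shared a run and had losses over 50 bp of 5.24%, 4.88% and 5.31%. In every other control this was at most 2.18%. Depth and run cannot be told apart in these relations. The share of junctions at moderately cut sites and right-end use fell by rank (rho −0.670 and −0.648, adjusted p = 0.02236 and 0.02606). By Pearson's r these did not (adjusted p = 0.0576 for each). Far-side joins and the share among AsiSI sites passed by neither.

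Moderately cut sites lay between the other classes in this measure. In the 13 controls, restored joins made up 38.4% ± 14.7 at moderately cut sites, 21.3% ± 9.69 at strongly cut and 48.8% ± 15.3 at rarely cut sites (SD, n = 13). Within libraries the moderately cut sites were higher than the strongly cut by 17.1 percentage points ± 5.68, in 13 of 13 libraries, and lower than the rarely cut by 10.4 ± 4.92, in 13 of 13. Both had p = 0.000244 (exact sign-flip permutation test, 2-sided, the smallest possible) and an adjusted p of 0.000488 over 16 tests. The classes also differ in junctions per site (medians of 585, 134 and 0), so class and depth per site cannot be told apart here.

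**Figure D4:**
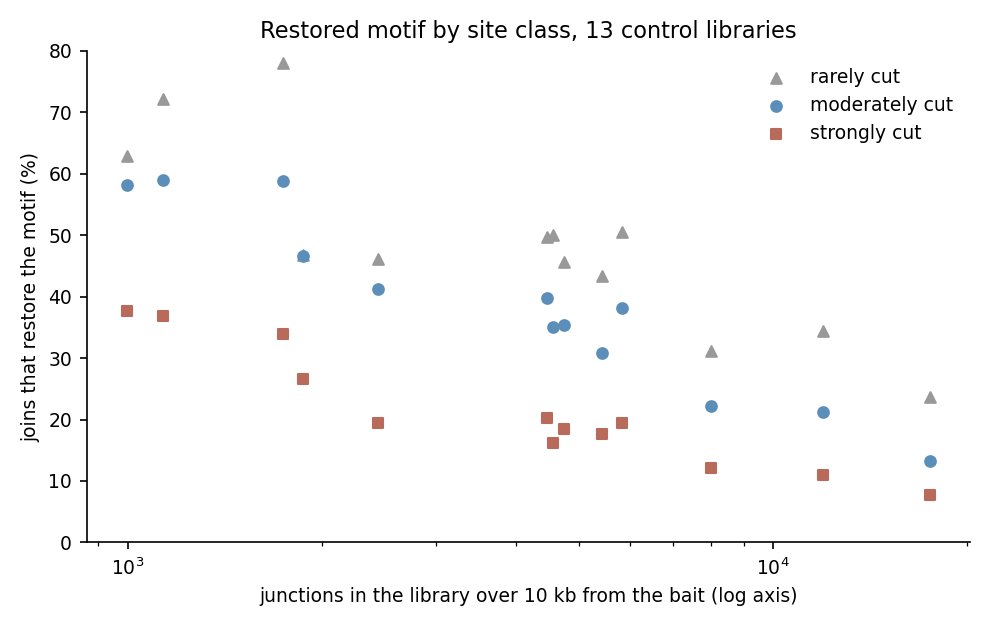
Percentage of joins that restore the AsiSI motif in each of 13 control libraries, by junctions in the library (log axis) and class of site. Each library gives 3 points. The moderately cut sites fall from 59.0% to 13.2% with depth and lie above the strongly cut sites in every library.

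Against strongly cut sites, the moderately cut also had fewer joins without overlap (by 4.91 percentage points), fewer with an overlap of 1 to 5 (by 8.81), fewer insertions (by 3.38), fewer far-side joins (by 2.73) and fewer losses over 50 bp (2.25% against 3.69%), each with an adjusted p of 0.000868 or 0.000488 by the exact sign-flip permutation test. When restored joins were left out, an alternative chosen after seeing the data, the loss over 50 bp stayed lower, by 1.18 points, and overlaps of 6 or more stayed more frequent, by 1.79 points (adjusted p = 0.02051 for each, exact sign-flip permutation test). The differences in joins without overlap, short overlaps, insertions and far-side joins did not (adjusted p = 0.6844, 0.7007, 0.5192 and 0.4572). Against rarely cut sites, insertions were more frequent by 3.24 points and short overlaps by 6.37 (adjusted p = 0.002279 and 0.001953, exact sign-flip permutation test), and with restored joins left out these had adjusted p = 0.05195 and 0.5192. Overlaps of 6 or more were less frequent than at rarely cut sites with restored joins counted, by −12.5 points (adjusted p = 0.000488), and left out, by −7.30 points (adjusted p = 0.02051, exact sign-flip permutation test). The use of the right end showed no difference past the threshold from either class (−0.60 and 0.04 points, SD 2.76 and 3.92).

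The treatments were compared as shares, which show shifts between classes of sites but not a change in all translocations together. Fewer cut cells and fewer joins per cut cell cannot be told apart in them. The study reports, ahead of its Hi-C work, that its treatments left AsiSI cutting unchanged. Its methods give quantitative PCR at specific sites for this. After CK-666 no change in the share at moderately cut sites passed the test. The share was 22.1%, 30.3% and 35.2% (lowest, median, highest of 6) against 26.8%, 31.9% and 33.3% in its controls. The mean log2 ratio over 6 pairs was −0.08 ± 0.15 (SD), higher in 3 and lower in 3, with an adjusted p of 0.625 (exact sign-flip permutation test, smallest unadjusted p 0.03125). With restored joins left out it was −0.22 ± 0.14 (adjusted p = 0.375, exact sign-flip permutation test). Their share among AsiSI sites off chromosome 2 changed by −0.01 ± 0.04 (57.8% ± 1.14 against 58.4% ± 1.21). Within the run of replicates 1 and 2 the ratio of the first share was −0.08, and within that of replicates 3 to 6 it was −0.07.

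No moderately cut site was called after CK-666 (0 of 184 with at least 10 junctions, limma; background 0.0% of 298 motifs). At an unadjusted p under 0.05 there were 11, 8 higher and 3 lower, where the background was 4.7%. The lowest p on each side belonged to Cap2 (chromosome 13, 46501928; log2 1.14 ± 0.38 SE) and Gipc1 (chromosome 8, 83652238; 1.19 ± 0.44), and to Dab2 (chromosome 15, 6386610; −0.71 ± 0.29) and Ptprg (chromosome 14, 12140007; −0.64 ± 0.30). Their adjusted p from limma ran from 0.8449 to 0.8784. The median log2 change was 0.04 over the 184 sites and 0.05 over all 298. In simulated libraries of the same depth, 27.1% of 2-fold and 87.6% of 4-fold increases were recovered, so a 2-fold increase at most sites was not detectable at this depth. The simulation assumed a spread between libraries and held no decreases, so their recovery is not known.

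With NU7441 the moderately cut sites held more of the junctions at AsiSI sites in each of 3 pairs, a number too small for a test to pass the threshold. Their share among AsiSI sites off chromosome 2 was 65.3%, 69.0% and 70.1% with NU7441, and 57.1%, 56.5% and 62.8% in the numbered controls. The groups did not overlap. The mean log2 ratio was 0.21 ± 0.07 (SD, n = 3 pairs), higher in 3 of 3, with p = 0.25 by the exact sign-flip permutation test, the smallest that 3 pairs allow (adjusted p = 0.3125). It was 0.24 within the run of replicates 1 and 2 and 0.16 in replicate 3. The share of all junctions had no common direction: 26.7%, 20.4% and 39.98% against 22.1%, 27.6% and 29.9% (log2 ratio 0.09 ± 0.46, and −0.48 ± 0.98 with restored joins left out). Among AsiSI sites off chromosome 2, strongly cut sites held a lower share in each pair. They had 190 of 787, 85 of 384 and 696 of 3620 junctions with NU7441. In the controls they had 599 of 1766, 402 of 1192 and 2240 of 8307. Rarely cut sites held a higher share in each pair, with 69, 28 and 359 junctions of the same totals against 114, 78 and 667.

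**Figure D5:**
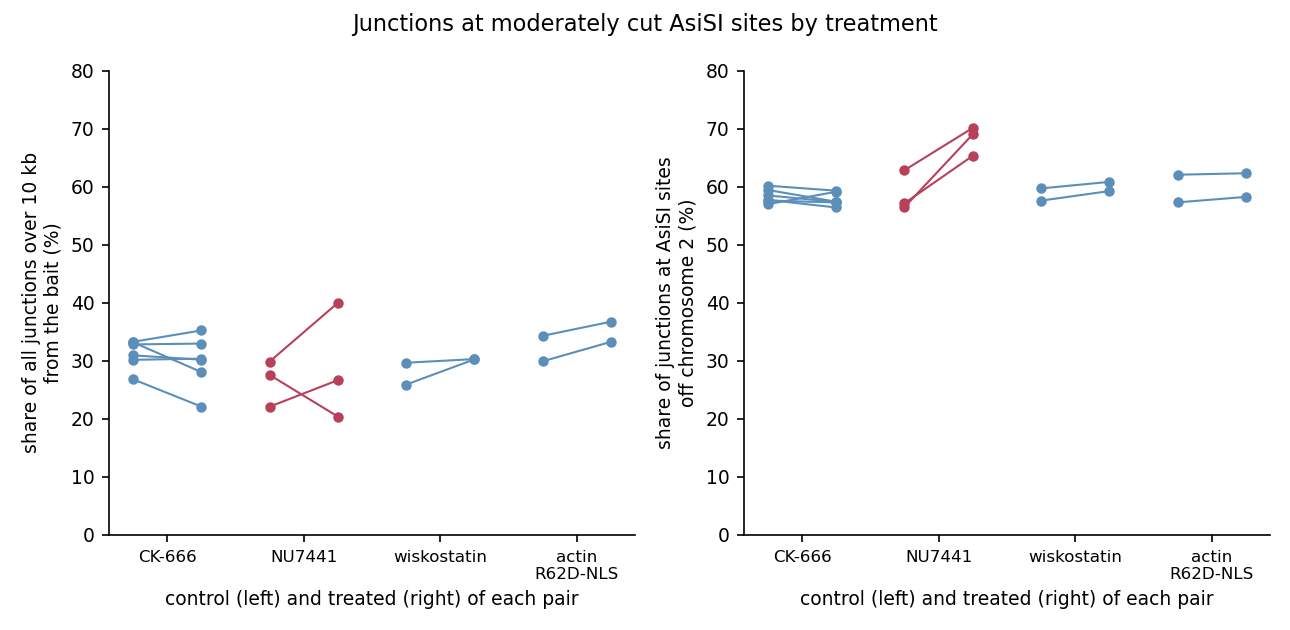
Share of junctions at moderately cut sites (percent) in each control (left point) and its treated library (right point), among all junctions over 10 kb from the bait (left panel) and among junctions at AsiSI sites off chromosome 2 (right panel). In the right panel the 3 NU7441 libraries lie at 65.3 to 70.1%, above their controls at 56.5 to 62.8%, while the other treatments stay near their controls.

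Few single sites were called after NU7441: 3 of 184 (limma, adjusted p under 0.05), a lower share than the background of 3.36% of 298 motifs (0.671% higher, 2.68% lower). Of the 3, 1 rose and 2 fell. The upstream Cmip site had shares of 0.207%, 0.154% and 0.0473% with NU7441 and 0.526%, 0.696% and 0.269% in controls, 9 against 88 junctions (log2 −1.80 ± 0.35 SE, adjusted p = 0.002601). Its groups did not overlap. Fat4 had 0.156%, 0.0% and 0.299% against 0.307%, 0.410% and 0.309% (−1.44 ± 0.41, adjusted p = 0.04414), a call lost without the replicate block (limma adjusted p = 0.06866). The site between genes 3838 bp from the start of Nr2f2, a nuclear receptor, had 2, 2 and 6 junctions with NU7441 and 0, 0 and 3 in the larger control libraries (3.05 ± 0.66, adjusted p = 0.005611), so this call rests on 13 junctions.

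The calls of Cmip and Fat4 were lost with each position counted 1 time (limma adjusted p = 0.07238 for both). Without replicate 1 or without replicate 2 only 1 site was called, and the call of Nr2f2 was lost in both (limma adjusted p = 0.0707 and 0.07558). Fat4 had a log2 change of −0.41 without replicate 2 (limma adjusted p = 0.6042), the pair whose treated library had no junction there. At an unadjusted p under 0.05 there were 22 sites, 19 higher and 3 lower, again a lower share than the background of 17.1%. The median log2 change was 0.37 over the 184 sites and 0.34 over all 298. Each NU7441 library was smaller than its control, and the 0.5 added to each number raises the value of a sparse site in a smaller library. The part of this in the higher sites and in both medians was not tested.

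The form of the joins differed between NU7441 and its controls in the same direction in every pair for most measures, but the treated libraries were also smaller in each pair (1928, 1300 and 6348 junctions against 4567, 2442 and 17479). Restored joins made up 64.4%, 74.7% and 19.5% with NU7441, and 34.99%, 41.2% and 13.2% in controls. The mean difference was 23.1 percentage points ± 14.7 (SD, n = 3 pairs), which was 31.5 within the run of replicates 1 and 2 and 6.30 in replicate 3. Joins without overlap were lower by 8.76 points ± 1.5, insertions by 3.23 ± 1.32, far-side joins by 2.31 ± 1.29 and losses over 50 bp by 1.61 ± 0.19, each in 3 of 3 pairs (p = 0.25 each, exact sign-flip permutation test, the smallest possible). Within 100 bp of the motif the difference in losses over 50 bp was −0.30 ± 0.66, without a common direction over the 3 pairs. Leaving out restored joins turned the difference in joins without overlap to 2.97 ± 10.8 and that in far-side joins to −0.65 ± 1.35, and kept losses over 50 bp lower by 1.85 ± 0.50 and insertions by 3.16 ± 3.47. The part of depth in these differences was not tested.

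After CK-666 none of the 8 join measures passed the threshold over 6 pairs. Restored joins changed by 6.73 percentage points ± 11, short overlaps by −5.10 ± 5.66, insertions by −1.21 ± 3.25, far-side joins by −1.67 ± 4.19 and losses over 50 bp by 0.10 ± 0.62 (SD, n = 6 pairs; adjusted p from 0.625 to 0.7812, exact sign-flip permutation test). Without replicate 2, whose treated library had 335 junctions, restored joins changed by 3.67 points, insertions by −0.10 and far-side joins by −0.13. The difference in losses over 50 bp lay between −0.0030 (without replicate 1) and 0.33 (without replicate 6).

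Wiskostatin and Actin-R62D-NLS had 2 pairs each, so their values are given without a test. With wiskostatin the moderately cut sites took 30.2% and 30.3% of junctions, against 25.9% and 29.7% in the controls, and 60.8% and 59.2% of junctions at AsiSI sites off chromosome 2, against 59.7% and 57.6%. With Actin-R62D-NLS they took 33.3% and 36.7% against 29.9% and 34.3%, and 62.3% and 58.2% against 62.05% and 57.3%. Both measures were higher in both pairs of each treatment, by at most a log2 ratio of 0.22. No site was called in either (0 of 184, limma; background 0.0%), with 7 sites for wiskostatin and 9 for actin at an unadjusted p under 0.05, where the backgrounds were 3.02% and 4.03%. Far-side joins were higher by 3.96 points ± 2.94 with wiskostatin (SD, n = 2 pairs), and restored joins changed by 5.96 ± 8.99 with wiskostatin and −3.18 ± 11.7 with actin. In each of these 4 pairs the smaller library held the higher percentage of restored joins.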

How the data were processed

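HTGTS junction tables of 32 mouse libraries were used. The Hi-C samples were not used here. Per the study's methods, sonicated DNA was amplified with biotinylated and nested bait primers, sequenced, aligned to mm10 with BWA, filtered by the HTGTS pipeline at default settings for mapping quality above 30, and freed of duplicates. Software versions are not given in the sources used here. The values in the deposited tables are coordinates and read positions per junction (1 row each), neither counts per feature nor normalised, so junctions were counted here. Whether removal of duplicates limited how often identical joins appear was not tested.

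Motif positions and the cut classes came from the study's END-seq motif list, and all 1109 motifs were found in the mm10 reference. Genes are from GENCODE vM21, and a site is named by its nearest protein-coding transcription start. Junctions on standard chromosomes over 10 kb from the bait form the denominator. End loss was measured from the full end with its overhang kept, and overlap as bases shared by the bait and prey alignments. Restored joins hold the whole motif with an overlap of at least 8.

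Shares per site, log2((junctions + 0.5) / (library total + 1) × 1000), were fitted with limma 3.58.1 in R 4.3.3 over 298 motifs with at least 10 junctions, with the pair as a block, 1 term per treatment and Benjamini-Hochberg adjustment. End use was fitted on log2((right + 0.5) / (left + 0.5)) in the 13 controls, weighted by joins. Both fits were checked on simulated data: for end use, 60% of sites set at 65% and 90% set at 80% from 1 end were recovered over 276 motifs. This was 1 draw per setting without added spread between libraries, so recovery in the data may be lower. Each setting gave 1 false call. For CK-666, with 40 sites raised, false calls averaged 1.1 at 2-fold and 3.6 at 4-fold. Class and treatment measures used exact sign-flip permutation tests, adjusted over 16 tests and over 10 measures per treatment. Pairs follow the study, which sets each control to 1 within its replicate. As a check, site deviations of same-numbered libraries correlated at 0.12 to 0.17 for NU7441 and at −0.04 to 0.17 for CK-666. Each NU7441 replicate correlated best with its own control, but for CK-666 only replicate 5 did. For CK-666 replicates 4 and 6 the own value (0.061 and −0.040) lay below the median of the other controls (0.078 and 0.0009). In the other CK-666 replicates it lay above. The sites, lists and tests were chosen with earlier results of these data known. Sites were named by a rule (highest shares, calls, largest end preference, close motifs, threshold neighbours). Alternatives were the window, repeated positions, filters, pseudocount, pairing, end-loss limits and leaving out libraries.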

Additional observations from a re-analysis of the deposited data

How the results depend on the processing

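With junctions at each position and strand counted 1 time, the NU7441 fit called 1 moderately cut site, and 1 to 3 were called when each pair was left out in turn. The number of sites with uneven ends was 39 by the exact sign flip over libraries (80 with limma), and 64 to 81 when each control was left out. Leaving out restored joins, chosen after seeing the data, changed the class contrasts. Against strongly cut sites, far-side joins became 1.22 points higher, joins without overlap −0.61, overlaps of 1 to 5 −0.48 and insertions −0.70. Against rarely cut sites these were 0.73 for no overlap, 2.56 for overlaps of 1 to 5 and 4.02 for insertions, none past the threshold. Loss over 50 bp against rarely cut sites (−0.87, adjusted p = 0.05439, exact sign-flip permutation test) passed the threshold within 100 bp (−0.71) and lay between −1.02 and −0.62 when each control was left out. Far-side joins against rarely cut sites passed it with repeated positions counted 1 time (2.54). The untested 2-pair values moved as follows. For wiskostatin, loss over 50 bp became 0.27 within 100 bp, loss over 10 bp was −5.83, the log2 ratio among AsiSI sites became 0.012 with positions counted 1 time, and without restored joins far-side joins became 6.97 and insertions 4.13. For Actin-R62D-NLS the log2 ratio of the share became 0.21 and right ends 0.24 without restored joins.

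Without the replicate block, the share among AsiSI sites after NU7441 kept its log2 ratio of 0.21, and 2 sites were called in place of 3 (Fat4 was lost, limma adjusted p = 0.06866). The pairing changed no other call. Small libraries limit all per-site values, and shares do not show a change in all translocations together.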
